A study of Bos taurus with 8 samples.

Results

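The proteasome genes are the 48 genes on the array whose symbol in the authors' deposited table starts with PSMA to PSMG followed by a digit, out of 16966 symbols. They were read by 103 of the 43653 probes. The symbols cover the core particle (PSMA and PSMB), the ATPases (PSMC) and the other subunits (PSMD) of the regulatory particle, the activators (PSME), an inhibitor (PSMF1) and assembly chaperones (PSMG). One match, PSMC3IP, is a recombination protein and no subunit. Transcripts were measured with single-colour Agilent bovine arrays in whole blood of 5 female Holstein Friesian cows. Blood kept for 30 min with 10 µg/ml of a phenolic extract of cowpea leaf (CPE, 4 arrays) was set against blood incubated likewise without extract (CONTROL, 4 arrays). Both were held at 37 °C under 5% CO2. All the cows had received a probiotic for 60 days beforehand, so the CONTROL blood came from probiotic-treated cows too. No source used here gives the age of the cows. The series text says that pooled RNA was hybridised. Standard errors (SE) and p-values below therefore measure how arrays of a pool vary, which may be technical, and not how cows vary. The question addressed is how the extract changes gene expression in blood.

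The proteasome is the main protease of the cytosol and nucleus, and degrades proteins that carry chains of ubiquitin. In human and yeast proteasomes, its barrel-shaped core is closed at both ends by rings of alpha subunits, and the cutting sites sit inside on certain beta subunits. A regulatory particle, made of a base with ATPases and a lid, binds, deubiquitinates, unfolds and threads the substrate into the core. White blood cells are known for a second set of catalytic beta subunits, the immunoproteasome, and for the activator made of PSME1 and PSME2. Both are induced by interferon gamma in human and mouse cells and shape the peptides shown on MHC class I. Red cells and platelets of mammals lack a nucleus, so the nuclei of blood are those of white cells. In RNA from bulk blood, fewer cells of a type and less RNA per cell cannot be told apart.

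Large areas of each array were dim, and their shape differed between arrays. The 75th percentile of processed signal ran from 135 to 280 intensity units on CPE arrays and from 53.4 to 150 on CONTROL arrays. A spot was called bright on an array from the raw brightness of its 61 nearest spots, without use of the groups. Bright spots made up 43.15% to 50.2% of CPE arrays and 31.9% to 40.8% of CONTROL arrays, and 13028 spots, 29.7% of all, were bright on all 8. Each group lay on its own slide, so for every value below slide and group cannot be told apart. On CPE array 3 alone, the scanner software had divided the signal by a fitted surface, whose median factor in the bright area was 1.59. No spot was saturated.

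Of the 103 proteasome probes, 30 (29.1%) were bright on all 8 arrays and 31 were bright on none, counting the 4-spot PSMD5 probe as bright only where all its spots were. The scanner software called 37 probes (35.9%) well above its background on all 8 arrays, against 22.1% of all spots, and 10 probes on no array. Among spots bright on all 8 arrays, 27 of the 30 single-spot proteasome probes (90%) were also above background on all 8, against 55.4% of all such spots. The comparison used 28 probes of 20 genes that passed both conditions, 1 of them the PSMD5 probe through the 2 of its 4 spots that were bright and above background on all 8 arrays. Its other 2 spots, dim on most arrays, were left out. The other 28 genes were not tested. In the core these were PSMA1, PSMA2, PSMA3, PSMA5, PSMA7, PSMB1, PSMB3 and PSMB6, the immunoproteasome genes PSMB8, PSMB9 and PSMB10, and the thymus subunit gene PSMB11. In the regulatory particle they were PSMC2, PSMC4, PSMC5, PSMD2, PSMD6, PSMD7, PSMD8, PSMD12 and PSMD14. PSMD9, PSMD10, PSME3, PSME4, PSMG1, PSMG3 and PSMC3IP were the others. The filter did not use the groups, but it left no immunoproteasome gene in the test.

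**Figure D1:**
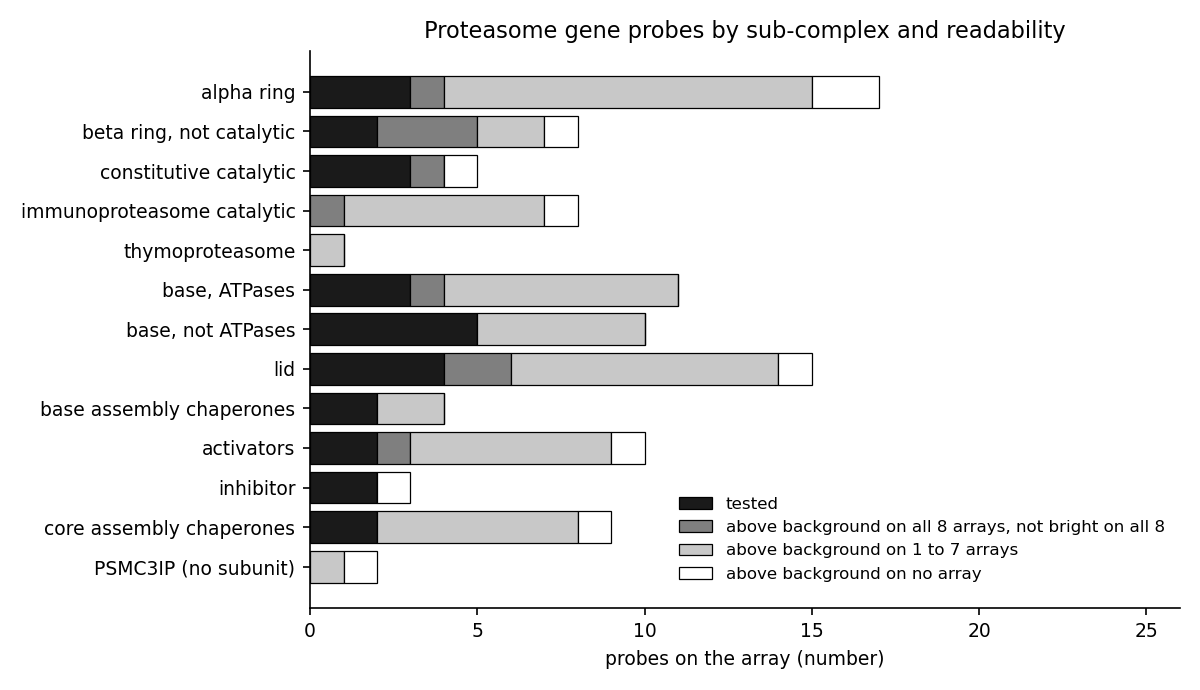
Number of probes on the array (horizontal axis) for each sub-complex, split by whether a probe was tested, above background on all 8 arrays but not bright on all 8, above background on 1 to 7 arrays, or on none. The base subunits that are no ATPases had the most tested probes (5 of 10), and the immunoproteasome had 0 of 8.

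Transcripts of proteasome genes read higher in CPE more often than lower, relative to the other probes of the bright area. Of the 20 tested genes, each represented by its brightest tested probe, 10 rose (PSMA4, PSMB4, PSMB7, PSMC1, PSMC3, PSMC6, PSMD13, PSME1, PSMG2 and PSMG4), 1 fell (PSMD1, whose probes disagreed) and 9 passed in neither direction. The threshold was an adjusted p of 0.05 (limma, Benjamini-Hochberg over all 7197 probes tested). At that threshold 48.4% of all tested probes were called, 22.9% higher and 25.5% lower, so the share of genes called (55%) was near the background while the share called higher (50%) was above it. The call counts of a list this small were not tested against that background. By probe, 14 were higher, 1 was lower and 13 were neither. The groups did not overlap in 16 of 28 probes (57.1%), against 50.1% of all tested probes. The median log2 change of the 20 genes was 0.23, against −0.0038 over all tested probes, and under scaling to the whole array, dim areas included, it turned to −0.89 against −1.12 for all probes. The middle 50% of the genes ran from 0.065 to 0.41, against −0.36 to 0.33 for all probes. Most changes were small. PSMA4 alone of the 20 genes moved by at least 1 log2 unit, which 8.45% of all tested probes did.

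**Figure D2:**
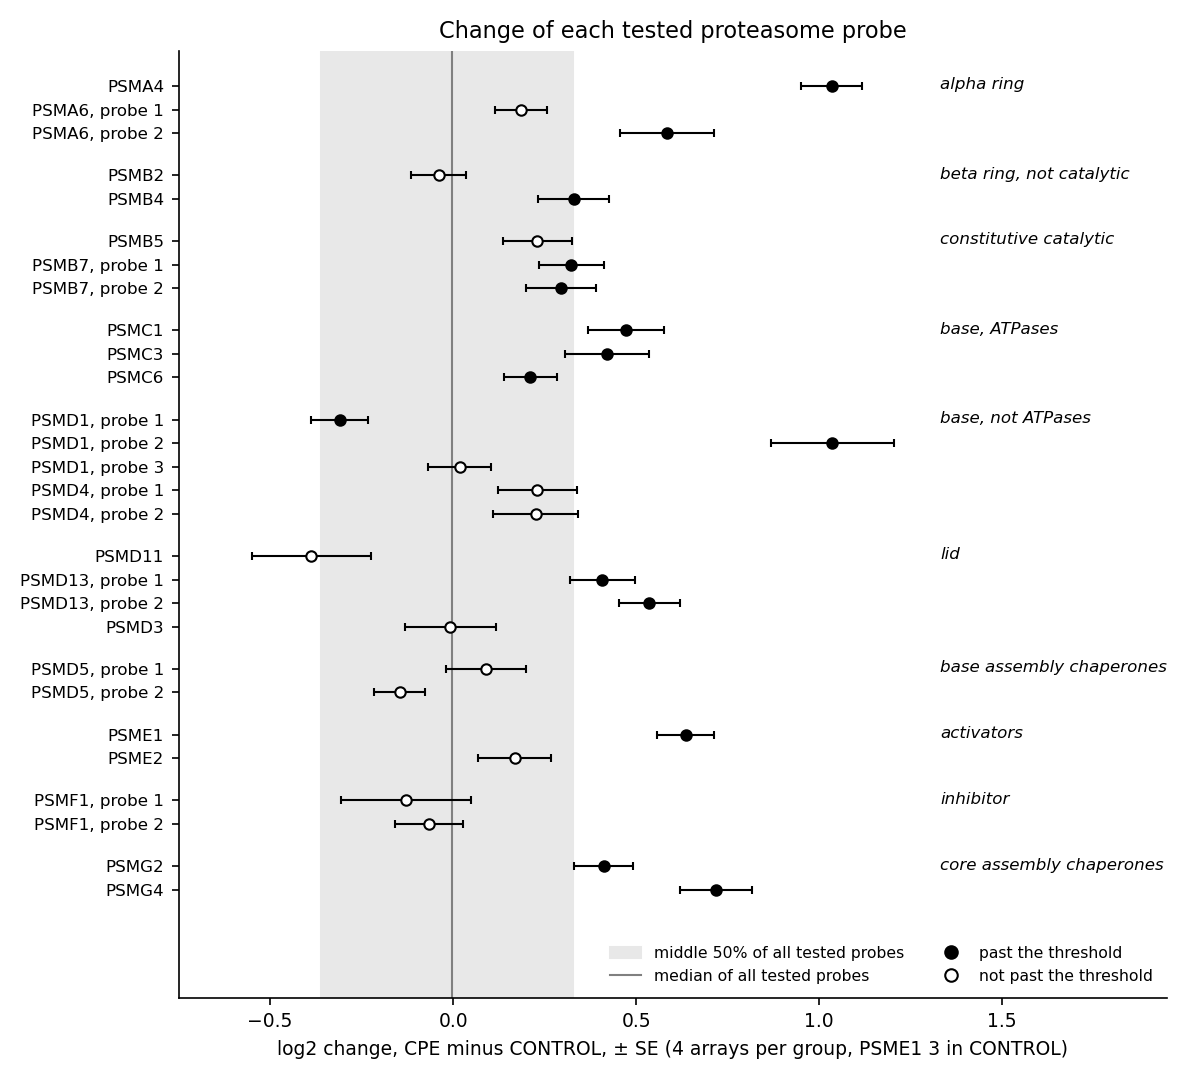
Log2 change, CPE minus CONTROL, with its SE, of each of the 28 tested proteasome probes, grouped by sub-complex, with filled points past the threshold. The grey line and band show the median (−0.0038) and the middle 50% (−0.36 to 0.33) of all tested probes in the bright-area scaling, and PSMA4 and PSMD1 probe 2 lie farthest to the right at 1.03 and 1.04 (under whole-array scaling PSMA4 read −0.08).

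The alpha ring gates the core. PSMA4, one of its 7 subunits, had the largest change of the 20 genes. Levels are log2 processed signal minus the 75th percentile of the array's bright area. The PSMA4 probe (NM_001034381) read 1.80, 1.83, 1.64 and 1.89 on CPE arrays 1 to 4, against 0.73, 0.72, 0.70 and 0.87 on CONTROL arrays 1 to 4. The lowest CPE array lay above the highest CONTROL array by more than either group's whole range. Means were 1.79 ± 0.11 for CPE and 0.76 ± 0.08 for CONTROL (SD, 4 arrays each), a 2.05-fold rise (log2 1.03, SE 0.08, limma adjusted p = 3.41e-05). Its spot sat in surroundings that were brighter in CPE by 0.33 log2 units, and the part of this in the result was not tested. The probe is shown because it carries the largest change.
PSMA4 probe: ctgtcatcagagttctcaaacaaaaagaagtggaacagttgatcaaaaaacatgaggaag

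PSMA6, another alpha subunit, had 2 tested probes. Its brighter probe read 3.91, 3.94, 3.91 and 3.93 in CPE, against 3.67, 3.69, 3.75 and 3.83 in CONTROL. All CPE arrays lay above all CONTROL arrays, yet the change of 0.18 (SE 0.07) missed the threshold (limma adjusted p = 0.0582) and passed it without CPE array 3 (log2 change 0.19, adjusted p = 0.0336). The other probe read 2.20, 2.20, 2.72 and 2.19 in CPE, against 1.63, 1.81, 1.75 and 1.78 in CONTROL, and rose by 0.58 (SE 0.13, limma adjusted p = 0.00577). CPE array 3 stood apart there. PSMA7 had a probe above background on all 8 arrays and dim on CONTROL array 4 alone. Without that array it read 0.86 higher in CPE (SE 0.40) and missed the threshold (limma adjusted p = 0.116). CPE array 3 read 4.01 there, against 2.71, 2.30 and 2.36 on CPE arrays 1, 2 and 4.

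Among the beta subunits without a cutting site, PSMB4 rose and PSMB2 did not pass. PSMB4, which helps to hold the beta rings together, read 4.46, 4.36, 4.67 and 4.30 in CPE, against 4.10, 4.06, 4.08 and 4.23 in CONTROL. The groups did not overlap, but CPE array 4 and CONTROL array 4 lay close. PSMB4 changed by 0.33 (SE 0.10, limma adjusted p = 0.022), a 1.26-fold rise. Without CPE array 1, or CONTROL array 1, 2 or 3, PSMB4 missed the threshold (limma adjusted p = 0.0523, 0.0558, 0.0652 and 0.0596). PSMB2 changed by −0.04, with a 95% confidence interval from −0.21 to 0.13. PSMB3 had 3 probes, of which 1 was bright on all 8 arrays but above background on none. Its 2 others were above background on all 8 arrays, and 1 of them was dim on CONTROL array 4 alone. Without that array this probe read 1.21 higher in CPE (SE 0.34, limma adjusted p = 0.0243). Its levels were 2.22, 1.73, 3.27 and 1.93 in CPE, with CPE array 3 far above the others, against 1.12, 1.03 and 1.09 on CONTROL arrays 1 to 3.

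The constitutive catalytic subunits are PSMB5, PSMB6 and PSMB7, which cut after hydrophobic, acidic and basic residues in that order. PSMB7 rose at both of its probes. Its brighter probe read 3.99, 4.06, 3.94 and 4.01 in CPE, against 3.60, 3.58, 3.64 and 3.88 in CONTROL (log2 change 0.32, SE 0.09, limma adjusted p = 0.0161). The other read 1.70, 1.87, 1.55 and 1.66 in CPE, against 1.34, 1.41, 1.31 and 1.55 in CONTROL (log2 change 0.29, SE 0.10, limma adjusted p = 0.0314). Both probes gave much the same size of change at separate places of the array. The groups were apart at the brighter probe and met at the other, where CPE array 3 and CONTROL array 4 read the same to 2 decimals. Without CONTROL array 2 the brighter probe of PSMB7 missed the threshold (limma adjusted p = 0.0553).

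PSMB5 read 1.81, 1.83, 1.57 and 1.79 in CPE, against 1.41, 1.53, 1.47 and 1.68 in CONTROL. CPE array 3 fell among the CONTROL arrays. The change of 0.23 (SE 0.09) missed the threshold (limma adjusted p = 0.0709), and its 95% confidence interval ran from 0.02 to 0.44. Without CPE array 3, PSMB5 passed it (log2 change 0.29, limma adjusted p = 0.0132). The single readable probe of PSMB6 was bright on the 4 CONTROL arrays and on 0 CPE arrays. Its processed signal was 3798, 2858, 4439 and 3093 intensity units in CPE, against 2821, 2963, 2796 and 1463 in CONTROL, and it entered no test.

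**Figure D3:**
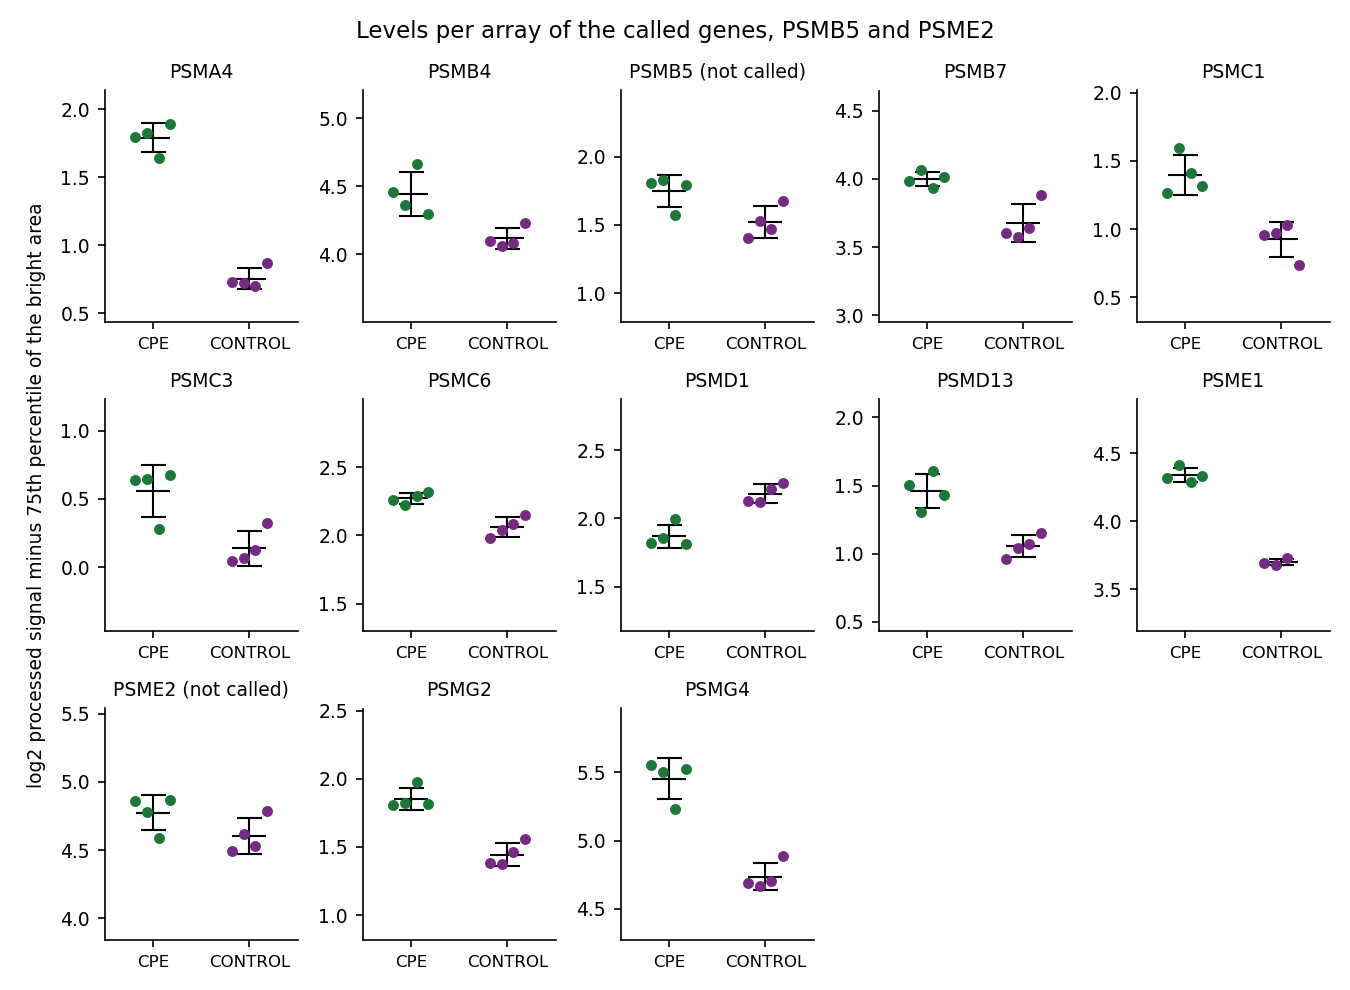
Log2 level of each array (points), with group mean and SD, for the 11 called genes at their brightest tested probe and for PSMB5 and PSME2, which were not called, with CPE left of CONTROL in each panel and every axis spanning the same number of log2 units. In the bright-area scaling 10 genes lie higher in CPE, by 0.21 (PSMC6) to 1.03 (PSMA4), while PSMD1 lies lower, and under whole-array scaling all 11 read lower in CPE.

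The immunoproteasome replaces those 3 catalytic subunits with PSMB8, PSMB9 and PSMB10. None could be tested on all 8 arrays, and the probes of PSMB8 gave unlike readings. The first PSMB8 probe read 14625, 23688, 16424 and 14092 intensity units in CPE, against 3803, 2290, 2775 and 30.6 in CONTROL. The second read 4340, 4580, 2308 and 3986 in CPE, against 4680, 4123, 3895 and 880 in CONTROL. At the third, the signal was 30.4, 4911, 1517 and 18.1 in CPE, against 12.4, 10.15, 8.03 and 9.15 in CONTROL. The first probe was thus far higher in CPE, the second had overlapping groups, and the third was above background on 3 CPE arrays and 0 CONTROL arrays.

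Their surroundings differed between the groups too. The first PSMB8 spot lay 2.14 to 2.53 log2 units above the brightness limit on CPE arrays, against 0.97 to 1.47 on CONTROL arrays 1 to 3 and −2.47 on CONTROL array 4. The second lay 0.12 to 0.44 above it in CPE, against 0.90 to 0.98 on CONTROL arrays 1 to 3 and −0.50 on array 4. The third was in bright surroundings on CPE array 2 alone, where it read highest. With CONTROL array 4 and the outlier-marked CPE array 1 spot left out, the first probe read 2.93 higher in CPE (SE 0.28, n = 3 each, limma adjusted p = 0.000531), and without CONTROL array 4 the second read 0.03 higher (SE 0.09, adjusted p = 0.783). The part of the surroundings in these values was not tested. The second and the third probe are shown as 2 readings of 1 transcript (NM_001040480).
PSMB8 probe 2: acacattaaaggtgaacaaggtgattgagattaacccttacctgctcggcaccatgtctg
PSMB8 probe 3: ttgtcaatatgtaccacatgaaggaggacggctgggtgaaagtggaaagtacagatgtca

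PSMB9 had 4 probes, none bright on more than 2 arrays. The brightest gave 12201, 13448, 14696 and 442 intensity units in CPE, against 12768, 11067, 12486 and 39.1 in CONTROL. A second shares 50 of its 60 bases with the first and gave 7564, 3055, 1089 and 2308 in CPE, against 31374, 123, 120.2 and 29.4 in CONTROL. These readings of nearly the same stretch disagreed by −2.39 to 6.70 log2 units from array to array. The only PSMB10 probe was dim on every array, and above background on 1, CPE array 3, with 384 intensity units. PSMB11, which belongs to the thymus, gave 40.9 to 105 intensity units in CPE and 8.03 to 10.15 in CONTROL from a spot dim on all 8 arrays.

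A pair of PSMC4 probes with the same 60 bases gave unlike readings at 2 places of the array. One gave 19.1, 259.8, 744 and 6.95 intensity units in CPE, against 163, 129, 118 and 144 in CONTROL, from a spot bright on 0 arrays. The other gave 899, 1630.4, 175 and 1119.8 in CPE, against 112.5, 61.7, 71.2 and 9.15 in CONTROL, and was bright on CPE arrays 1, 2 and 4. Identical sequences read on 1 array thus differed by −7.33 to 3.98 log2 units. Overlaps of 33 to 53 bases were found in further pairs of PSMA5, PSMA7, PSMD4, PSMD8 and PSMG2 probes, none with both probes tested.

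**Figure D4:**
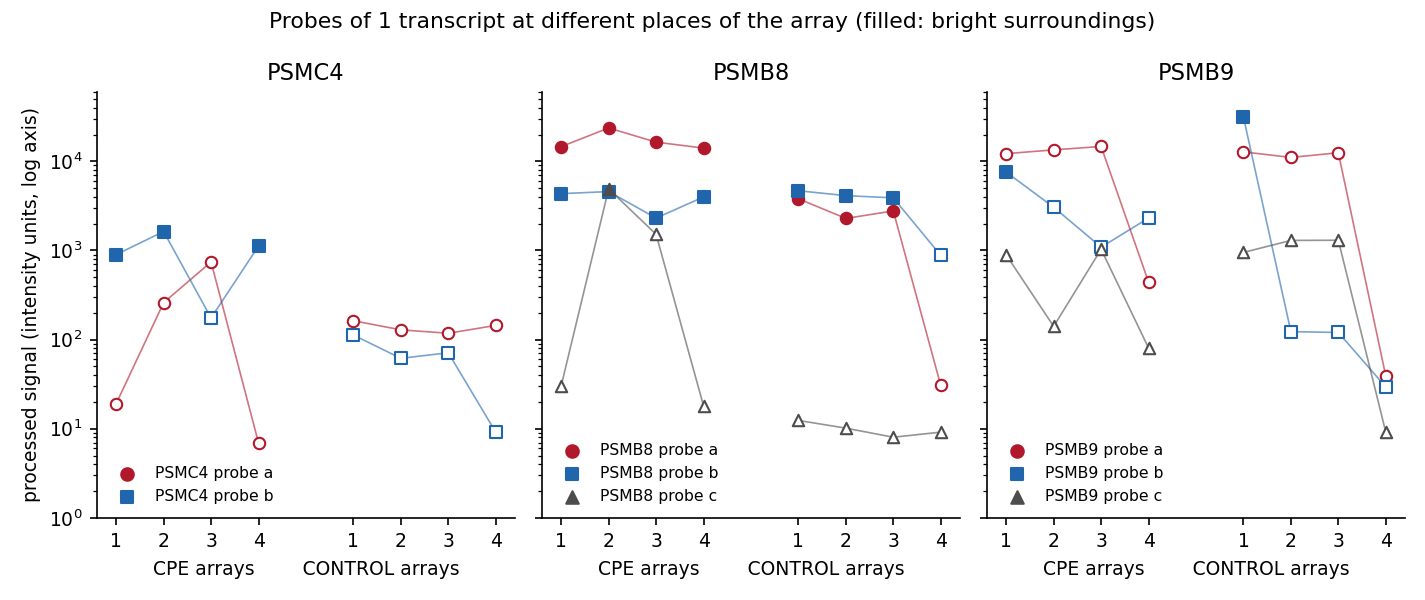
Processed signal (log axis) on CPE arrays 1 to 4 and CONTROL arrays 1 to 4 for probes of 1 gene each, the PSMC4 pair having the same 60 bases, with filled points where the surroundings were bright. The PSMC4 pair crosses between arrays, and the 3 PSMB8 probes lie nearest to each other on CPE array 2.

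The ATPases of the base form the ring that unfolds substrates, and all 3 that were tested rose. PSMC1 read 1.26, 1.60, 1.41 and 1.31 in CPE, against 0.96, 0.97, 1.03 and 0.74 in CONTROL (log2 change 0.47, SE 0.10, limma adjusted p = 0.00546). PSMC3 read 0.64, 0.65, 0.28 and 0.68 in CPE, against 0.04, 0.07, 0.12 and 0.32 in CONTROL (log2 change 0.42, SE 0.11, limma adjusted p = 0.0149). The groups of PSMC1 were apart, whereas CPE array 3 of PSMC3 fell below CONTROL array 4. PSMC6 read 2.26, 2.22, 2.29 and 2.32 in CPE, against 1.98, 2.04, 2.08 and 2.15 in CONTROL, a change of 0.21 (SE 0.07, limma adjusted p = 0.0391). It kept its call in 11 of 26 alternative settings, the fewest of the called genes, and lost it in 13 with the same direction. Those 13 include leaving out CPE array 1 or 4 or CONTROL array 1, 2 or 3 (limma adjusted p = 0.0763, 0.0992, 0.108, 0.103 and 0.0829). PSMC2, PSMC4 and PSMC5 were not tested. PSMC5 was above background on all 8 arrays and dim on CONTROL array 4. Without that array it read 0.56 higher in CPE (SE 0.20) and missed the threshold (limma adjusted p = 0.0578). CPE array 3 read 4.50 for PSMC5, against 3.76, 3.67 and 3.81 on CPE arrays 1, 2 and 4.

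PSMD1, the scaffold of the base that carries the ubiquitin receptor ADRM1, was the 1 gene called lower, and its probes disagreed. The brightest read 1.82, 1.86, 1.99 and 1.81 in CPE, against 2.13, 2.12, 2.22 and 2.26 in CONTROL. The groups were apart, and the probe fell by 0.31 (SE 0.08, limma adjusted p = 0.0108). A second read 1.87, 2.30, 2.21 and 2.05 in CPE, against 1.24, 1.22, 1.24 and 0.58 in CONTROL, and rose by 1.04 (SE 0.17, limma adjusted p = 0.00125). CONTROL array 4 was low there. The third read 1.31, 1.07, 1.34 and 1.35 in CPE, against 1.27, 1.27, 1.30 and 1.17 in CONTROL (log2 change 0.02, 95% confidence interval −0.18 to 0.21). All 3 were designed on the same transcript (NM_001101077), and the mean over them was called higher at 0.25. The surroundings were brighter in CPE by 0.43 log2 units at the second and differed by −0.06 and −0.003 at the first and the third, and their part was not tested. No direction is therefore given for PSMD1. The second and the third probe, whose changes differed, are shown.
PSMD1 probe 2: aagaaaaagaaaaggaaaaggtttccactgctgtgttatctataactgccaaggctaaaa
PSMD1 probe 3: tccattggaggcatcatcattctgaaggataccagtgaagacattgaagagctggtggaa

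PSMD4, a ubiquitin receptor of the base, changed by 0.23 (SE 0.11) and 0.22 (SE 0.12) at its 2 tested probes. Neither passed the threshold (limma adjusted p = 0.11 and 0.141). Without CONTROL array 4 the brighter PSMD4 probe passed it (log2 change 0.29, adjusted p = 0.0276). PSMD2, the other large scaffold of the base, was not tested.

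In the lid, which holds the deubiquitinase PSMD14, 3 of 8 genes were tested and PSMD13 rose at both probes. PSMD13 is one of the lid's structural subunits. Its brighter probe read 1.505, 1.31, 1.61 and 1.43 in CPE, against 0.96, 1.04, 1.07 and 1.15 in CONTROL (log2 change 0.41, SE 0.09, limma adjusted p = 0.00544). The other read 0.98, 1.16, 1.04 and 1.08 in CPE, against 0.55, 0.56, 0.63 and 0.38 in CONTROL (log2 change 0.54, SE 0.08, limma adjusted p = 0.00104). At both, all CPE arrays lay above all CONTROL arrays. The surroundings differed by 0.03 and −0.05 log2 units, less than for PSMA4. The 2 probes do not overlap, and are shown as separate readings of NM_001024532 that moved alike.
PSMD13 probe 1: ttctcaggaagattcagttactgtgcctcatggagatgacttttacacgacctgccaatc
PSMD13 probe 2: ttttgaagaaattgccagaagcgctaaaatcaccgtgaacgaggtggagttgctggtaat

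PSMD11, a lid subunit, read 2.61, 2.71, 1.99 and 2.72 in CPE, against 2.82, 2.83, 2.88 and 3.05 in CONTROL. All CPE arrays lay below all CONTROL arrays, and the change of −0.39 (SE 0.16) missed the threshold (limma adjusted p = 0.0781) with CPE array 3 far below the others. Without that array PSMD11 passed it (log2 change −0.21, adjusted p = 0.0447). PSMD3, also of the lid, changed by −0.01 (95% confidence interval −0.29 to 0.28). PSMD6, PSMD7, PSMD8, PSMD12 and PSMD14 were not tested. PSMD5, a chaperone of base assembly, changed by 0.09 and −0.15 at its 2 probes, neither past the threshold, and PSMD9 and PSMD10, which act at the same step, were not tested.

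PSME1 and PSME2 together form the interferon-inducible activator ring. PSME1 rose and PSME2 did not pass. PSME1 (NM_001024509) read 4.32, 4.41, 4.29 and 4.33 in CPE, against 3.70, 3.68 and 3.73 on CONTROL arrays 1 to 3. Its spot on CONTROL array 4 was marked as an outlier by the scanner software and left out. The groups were far apart, and the mean was 4.34 ± 0.05 in CPE (SD, n = 4) and 3.70 ± 0.02 in CONTROL (SD, n = 3). The rise was 1.55-fold (log2 0.64, SE 0.08, limma adjusted p = 0.000456). The PSME1 spot lay 0.49 to 0.71 log2 units above the brightness limit on CPE arrays, against 1.09, 0.31 and 1.06 on CONTROL arrays 1 to 3. The group means of these values differed by −0.009 only with CONTROL array 4 (0.02) counted, which the comparison left out. PSME2 read 4.86, 4.78, 4.59 and 4.87 in CPE, against 4.49, 4.61, 4.53 and 4.79 in CONTROL. Its groups overlapped. Without CPE array 3, PSME2 passed the threshold (log2 change 0.23, limma adjusted p = 0.0477), while over all arrays its change of 0.17 (SE 0.10, limma adjusted p = 0.191) had a 95% confidence interval from −0.06 to 0.40. The difference between the 2 changes was not tested. PSME3, the nuclear relative of both, and PSME4, which forms another activator, were not tested. PSMF1, an inhibitor of the core in vitro, changed by −0.13 and −0.07 at its 2 tested probes (limma adjusted p = 0.577 and 0.586). The PSME1 probe is shown as the largest called change of an activator.
PSME1 probe: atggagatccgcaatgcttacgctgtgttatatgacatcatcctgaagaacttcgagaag

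Both tested chaperones of core assembly rose. PSMG4, which pairs with PSMG3 on the growing alpha ring, read 5.55, 5.50, 5.23 and 5.53 in CPE, against 4.69, 4.67, 4.70 and 4.89 in CONTROL. Among the 20 genes only PSMA4 rose by more than PSMG4, which rose 1.64-fold (log2 0.72, SE 0.10, limma adjusted p = 0.000494). PSMG2, which pairs with PSMG1 to seed that ring, read 1.81, 1.82, 1.97 and 1.82 in CPE, against 1.38, 1.37, 1.46 and 1.56 in CONTROL (log2 change 0.41, SE 0.08, limma adjusted p = 0.00315). The groups were apart in both genes. The tested spots of PSMG4 and PSMC3 had the same local brightness on each array, so these rises do not come from separate surroundings. The part of this in their changes was not tested. The tested PSMG2 probe is listed under an expressed sequence tag and the tested PSMG4 probe under an Ensembl transcript, not a RefSeq accession. Their gene symbols are those of the authors' table. PSMG1 and PSMG3 were not tested.

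Array by array, the 20 genes leaned the same way with 1 exception. With each gene set to its own mean over the arrays, the median deviation was 0.15, 0.10, 0.11 and 0.16 on CPE arrays 1 to 4, against −0.20, −0.15, −0.16 and 0.02 on CONTROL arrays 1 to 4. CONTROL array 4 stood with neither group. That array was the dimmest (75th percentile 53.4), and without it 24 genes could be tested, of which 13 rose and 1 fell, with 44.0% of all tested probes called. Over all tested probes the same medians lay between −0.014 and 0.055.

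CPE array 3 differed from its group by an amount that went with the fitted surface. Over the 28 tested proteasome probes, the log2 surface factor and the distance of CPE array 3 from the mean of the other CPE arrays had r = −0.92, as a description of probes that share 1 array. The readings of CPE array 3 had been divided by this same factor, so part of the relation is built in. PSMF1, PSMD11 and PSMD3 had the largest factors (3.04, 2.99 and 2.69) and the lowest readings on that array, by −0.74, −0.69 and −0.49. PSMA6 probe 2 had the smallest factor (1.26) and the highest reading, by 0.52. With the signal taken before that division, 15 genes rose and 0 fell, the median of the 20 genes was 0.36, against 0.12 over all tested probes, and 56.7% of all probes were called. PSMB5 (0.41, SE 0.10, limma adjusted p = 0.00398) and PSME2 (0.35, SE 0.10, adjusted p = 0.0123) were then past the threshold, as were PSMA6, PSMD3 and PSMD4. PSMD1 lost its call (−0.20, SE 0.10, adjusted p = 0.108), and PSMD11 read −0.09.

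The brightness of a probe's surroundings went with its change. The difference in local brightness between groups and the log2 change had r = 0.54 over the 28 proteasome probes and 0.23 over all tested probes, as a description. That difference had a median of −0.070 over the proteasome probes, against −0.088 over all tested probes. Its part in the changes was not tested.

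Genes that work with the proteasome but fall outside the naming pattern did not lean to one side. Of 34 listed names, 31 were on the array and 15 were tested, of which 3 rose, 3 fell and 9 passed neither way, with a median log2 change of 0.016. All tested probes were split much alike, with 22.9% called higher and 25.5% lower, so the split is not particular to these genes. POMP, the maturation factor of the core, rose by 0.53 (SE 0.16, limma adjusted p = 0.0207), KIAA0368, a proteasome adaptor, by 0.63 (SE 0.19) and the ubiquitin gene UBB by 0.25 (SE 0.08). The shuttle factor genes UBQLN2 and UBQLN1 fell by 0.71 (SE 0.21) and 0.52 (SE 0.12), and TAPBP, which loads MHC class I, by 0.48 (SE 0.08). TAP1, the peptide transporter gene that lies between PSMB8 and PSMB9 in the annotation, changed by −0.05 (SE 0.11).

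Some markers of blood cell types were called in the same fit. Of all probes tested there, 48.4% were called, 22.9% higher and 25.5% lower. The marker counts were not tested against that share. Summed levels are in multiples of the bright-area 75th percentile. Of 7 tested T cell markers, 5 rose and 0 fell, with summed levels of 34.9 to 37.3 in CPE and 24.9 to 28.4 in CONTROL. Both tested neutrophil markers fell, with sums of 9.09 to 11.9 in CPE and 20.5 to 22.2 in CONTROL. Of 3 tested monocyte markers 1 fell (19.7 to 21.8 in CPE, 25.9 to 28.6 in CONTROL). Of 2 tested NK cell markers 1 rose and 1 fell. Their sum (33.6 to 38.5 in CPE, 16.9 to 19.7 in CONTROL) thus followed the marker that rose. None of 4 B cell markers was called, nor HBB of red cells, and the platelet gene PPBP rose by 1.46. Every listed marker on the array was above background on at least 1 array. The test covered 7 of 8 listed T cell markers, 4 of 6 for B cells, 2 of 8 for neutrophils and 3 of 5 for monocytes. It covered 2 of 5 for NK cells, 1 of 5 for platelets and 1 of 6 for red cells. The part of these marker differences in the proteasome values was not tested.

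The values of the authors' deposited table matched a shift to each whole array's 75th percentile, with 99.96% of probes within 0.1 log2 units. In that scaling most readable members had the opposite sign. In the authors' deposited table, 62 of the 103 proteasome probes were lower in CPE and 41 were higher, and of the 28 tested here 27 were lower. Its median difference was −0.42 for all 103 proteasome probes and −1.05 for all probes. Both medians include probes in dim areas and probes not above background, and the part of these in the gap was not tested. The table holds the same arrays with a shift of each, so the gap is no separate support. In the comparison over the whole array, 38.1% of 9643 probes were called, 2.13% higher and 36% lower, and 0 proteasome genes rose and 3 fell (PSMD1, PSMD5 and PSMD11).

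Relative to the median of all tested probes, most called members kept their side under each setting. Under the reported setting and 26 alternatives, the median of the proteasome genes lay 0.16 to 0.37 log2 units above that of all probes. The 10 genes that rose, with PSMA6, PSMB5, PSMD4 and PSME2, were above the median of all probes under every setting that gave them a value. PSMD11 was below it under all 27. PSMA4 ran from 0.92 to 1.19 above it, and PSMG4 from 0.62 to 0.98. A constant shift of an array, the threshold and the trended variance leave a gene's distance from that median the same or nearly so by construction. The gap of the medians was 0.233 as reported and without scaling, and 0.235 with whole-array scaling. Agreement under those settings is therefore no support. All settings use the same arrays, so their agreement says nothing of the slide.

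**Figure D5:**
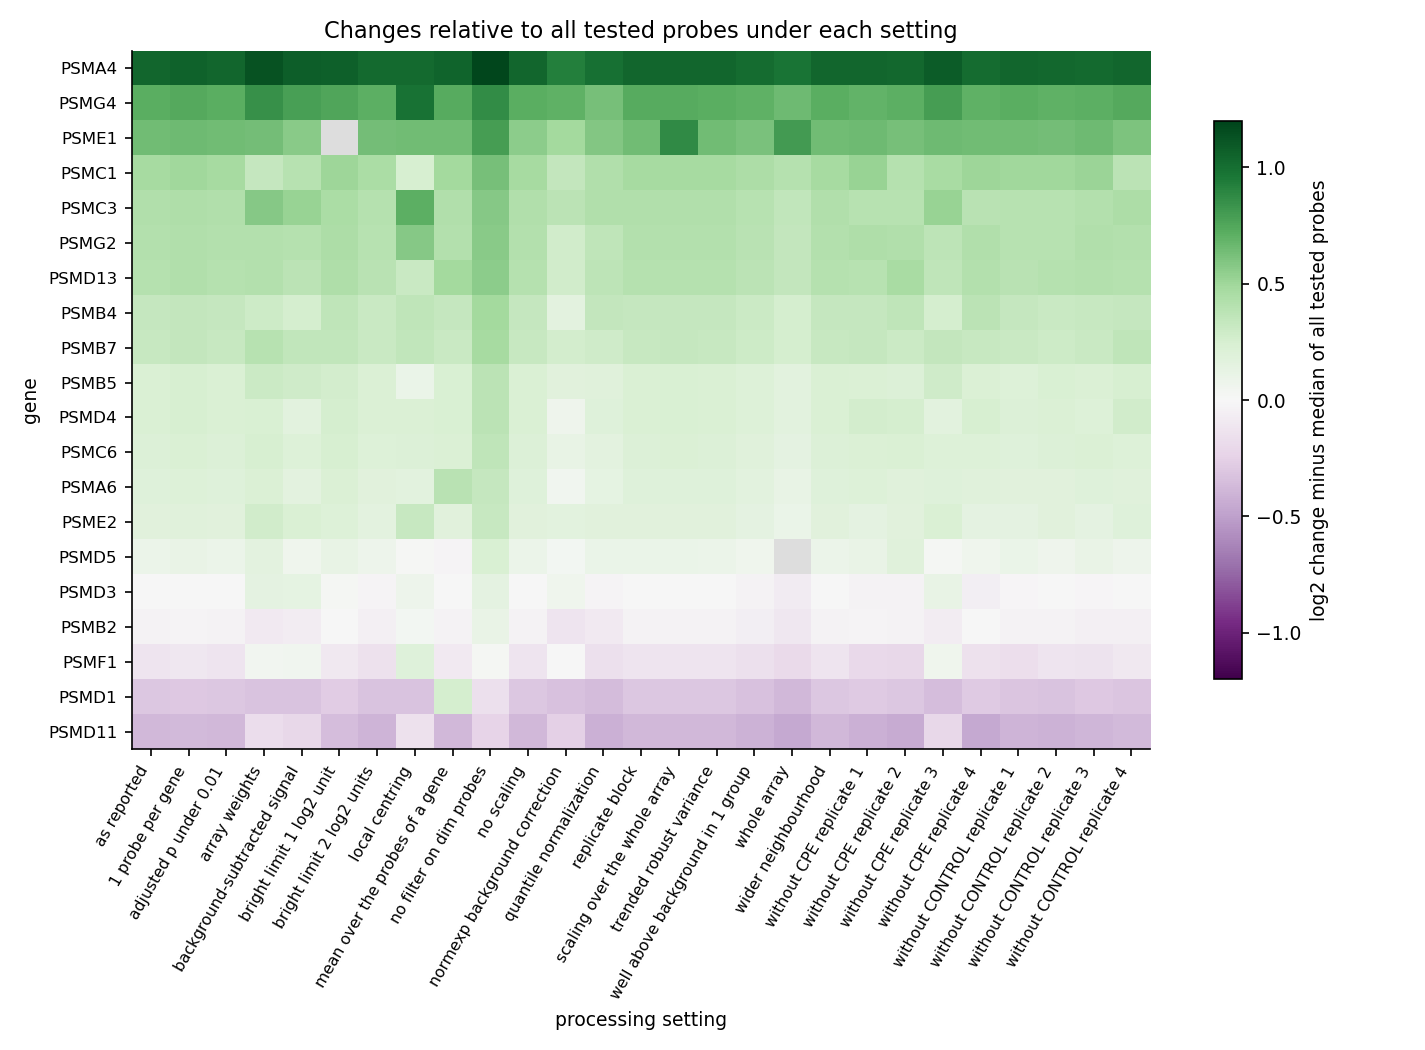
Log2 change minus the median of all tested probes (colour) for each tested gene (rows) under the reported setting and each alternative (columns), grey where a gene had no value. PSMA4, PSMG4 and PSME1 are above 0 in each column where they have a value, PSMD11 is below 0 in each, and PSMD1 changes sign when its probes are averaged.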

How the data were processed

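Signal intensity was deposited by the authors for 8 arrays, 4 of CPE and 4 of CONTROL, and made with Agilent Feature Extraction 10.10.1.1 per the submitters' processing notes. The deposited processed signal intensity is background-subtracted, with low values set to a floor, per the file headers, and is not scaled between arrays. The table deposited by the authors gives 1 log2 average per probe and group. Their test is not given here.

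Local brightness was the 90th percentile of the log2 median signal of a spot's 61 nearest spots. A spot was bright where this exceeded the array's 90th percentile of that value minus 1.5. Control spots and spots marked as outliers were left out. Log2 processed signal minus the array's 75th percentile over bright-area probes was compared by limma 3.58.1 in R 4.3.3 (empirical Bayes, two-sided, Benjamini-Hochberg over 7197 probes, threshold 0.05), with tables made in Python 3.11.15. The test used spots bright on all 8 arrays, averaged per probe, and kept probes whose bright spots were all well above background on all 8, with values on at least 2 arrays per group. The fit was tested on simulated data. All members were named, with values per array for called genes, catalytic beta subunits, PSME1 and PSME2 where tested, and for partners the 3 largest called changes each way. Values shown for untested members, and those without CONTROL array 4, were chosen after their values were seen. The members, the lists and the bright area were chosen with earlier results of these data known. Of the 103 probes, 91 matched a RefSeq accession with the same symbol, and no coordinates are given because the array design uses another build. The number of arrays limits precision.

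Alternatives covered background correction, scaling, filters, the bright area, the probes of a gene, the variance model, the threshold, the replicate number as a block and leaving out each array. Normexp correction used raw median signal, the raw signal in the files used here being a median. Deviations from the group mean of same-numbered arrays correlated at −0.12, −0.17, 0.29 and 0.41, so the numbers were not taken to pair the arrays.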

Additional observations from a re-analysis of the deposited data

Results flagged for a closer look

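In 10 of the 55 groups of 4 arrays behind the 28 tested proteasome probes, 1 array lay far from the other 3, where chance gives about 1 in 20. The measure is the gap to the nearest array as a share of the group's range. CPE array 3 was the distant array in 6 of these groups. It was the highest at PSMA6 probe 2 (share 0.9798) and at PSMG2 (0.9255). It was the lowest at PSMB5 (0.8621), PSMC3 (0.9121), PSMD11 (0.8585) and PSMG4 (0.8471). CONTROL array 4 was the distant array in 3 groups, as the lowest at PSMD1 probe 2 (0.9599) and as the highest at PSMD4 probe 1 (0.8308) and PSMG4 (0.8475). CPE array 2 was the lowest at PSMD1 probe 3 (0.8535). Without CPE array 3, 13 proteasome genes were called higher and 2 lower (PSMD1 and PSMD11), with a median of 0.24. Of all tested probes, 56.3% were called in that setting, against 48.4% with all arrays.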

How the results depend on the processing

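The direction of a proteasome value depended on the scaling. Scaling over the whole array called 0 genes higher and 5 lower (median −0.89). It called 50.9% of all 7197 tested probes, 6 higher and 3656 lower. Removing the restriction to bright areas called 0 and 3 (median −0.71), with 2.13% of all tested probes called higher and 36% lower. Under both, genes that rose in the bright area turned to PSMA4 −0.084 and −0.087, PSME1 −0.25 and −0.25, PSMG4 −0.40 and −0.40, PSMC1 −0.65 and −0.65, PSMC3 −0.70 and −0.70, PSMG2 −0.71 and −0.71, PSMD13 −0.71 and −0.71, PSMB4 −0.79 and −0.79, PSMB7 −0.80 and −0.80, and PSMC6 −0.91 and −0.91. Scaling over the whole array moved the median of all probes to −1.12, and no scaling moved it to −0.18. The share of called probes that were higher was 47.3% as reported, against 0.16% with whole-array scaling, 5.57% over the whole array, 22.9% without scaling and 62.6% for signal before the fitted surface. No scaling called 1184 probes (16.5% of those tested), with 1 proteasome gene higher and 0 lower (median 0.056). Normexp on raw median signal and the signal before the fitted surface were chosen after seeing the data. Normexp called 1872 probes, with 5 and 0, an adjusted p under 0.01 called 2240, with 6 and 0, and no filter on dim probes called 5637, with 2 genes lower. Array weights called 5257 probes (73.0% of those tested), with 16 genes higher and 2 lower (median 0.29), and turned PSMD3 to 0.15. Signal before the fitted surface called 56.7% of all tested probes, with 15 genes higher and 0 lower (median 0.36), and turned PSMD3 to 0.25. Local centring subtracts the median deviation of nearby bright spots from each value. It called 13 genes higher and 2 lower, with 70.2% of all tested probes called, and turned PSMF1 to 0.19. PSMA4 then read 1.02, PSMG4 0.98, PSMC3 0.72 and PSMC1 0.26, while PSMC6 missed the threshold (limma adjusted p = 0.0697). The mean over a gene's probes called 12 genes higher and 0 lower, with 49.4% of all values called, and turned PSMD1 to 0.25. Quantile normalization gave a median of 0.18. Leaving out each array called 2876 to 4057 probes (39.8% to 56.3% of those tested). It gave 7 to 13 genes higher, 1 or 2 lower and a median of 0.20 to 0.35, the last without CONTROL array 4. Over all settings and tested genes, 405 of 518 values kept direction and side of the threshold, 38 fell short of it and 28 newly passed with the same sign, and 47 changed sign, 23 of them past the threshold in neither setting. The cause was not tested.

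Shared numbers did not pair the arrays. The replicate number as a block gave 3429 probes called (47.6% of those tested), with 8 proteasome genes higher and 1 lower. Slide as a block could not be fitted, since each group lay on 1 slide. Bright surroundings and signal over background together limited the test to 20 of 48 genes. Without the filter on dim probes 22 genes were tested, and without the restriction to bright areas 27.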
